A study of Equus caballus with 28 samples.

Results

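miR-126 is a microRNA (miRNA) whose hairpin gives rise to 2 mature forms, eca-miR-126-3p and eca-miR-126-5p, cut from the 3' and the 5' side of the same precursor. Both were chosen by name from the table of known horse miRNAs, and they are 2 of the 844 miRNAs counted, of which 690 were known and 154 were predicted by the authors. miR-126 is made mainly by endothelial cells, the cells that line blood vessels, where its hairpin is transcribed from an intron of EGFL7, the gene of a secreted protein of the vessel wall. In the RefSeq annotation of the horse assembly TB-T2T, MIR126 likewise lay within EGFL7. The 3p form is known for restraining SPRED1 and PIK3R2, which dampen the response to vascular endothelial growth factor, and the adhesion molecule VCAM1. The 5p form is known for restraining the Notch ligand DLK1 in dividing endothelial cells.

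The samples came from 5 Warmblood mares, each followed through a pregnant and a cyclic cycle in random order, and were all taken 13 days after ovulation, when the mobile equine conceptus signals its presence to the mare. In both cycles ovulation was induced with hCG, and in the pregnant cycle the mare was inseminated with fresh semen of 1 stallion while in the cyclic cycle she was left unbred. miRNA counts were analysed for 5 pregnant and 4 cyclic endometrial biopsies, for uterine fluid (UF) of 5 pregnant and 4 cyclic cycles, and for the embryos and yolk sac (YS) fluids of the 5 pregnant cycles. No cyclic library of mare 5 was used here.

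The groups were also handled differently. UF was absorbed into an intra-uterine tampon and rinsed out with sterile water, and the biopsy was taken from the same uterus. The embryo was flushed out, freed of its capsule and separated from the YS fluid, which was aspirated with a needle. RNA was extracted from the fluids with another kit than from the tissues, so in every comparison of a fluid with a tissue the sample type and the extraction cannot be told apart. An endometrial biopsy holds epithelium, stroma, vessels and blood, and in such mixed samples fewer cells of a type and less RNA per cell cannot be told apart.

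Library totals here are the summed counts of known and predicted miRNAs and not all reads sequenced. They ranged from 280065 to 590593 reads in pregnant and from 61836 to 371630 in cyclic endometrium. In UF they ranged from 79173 to 152860 in pregnant and from 62087 to 226308 in cyclic samples. Embryos had 28204 to 44768 and YS fluids 4352 to 14531. A floor of 3 reads therefore stood for 5.08 to 10.7 CPM (reads of a miRNA scaled to a common library total) in pregnant endometrium and for 206 to 689 CPM in YS fluid. Early embryonic markers set embryos and YS fluids apart from endometrium and UF, as labelled. They leave the other labels unchecked. Of 8 early embryonic entries (the miR-302 to miR-367 cluster and miR-371 and miR-372), the summed level was at most 32.2 CPM in each endometrial and UF library and at least 12020 CPM in each embryo and YS fluid.

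Nearly all reads of both arms of miR-126 came from the endometrium. Over the 28 libraries, eca-miR-126-3p had 3816 reads, of which 3736 (97.9%) were in the 9 endometrial libraries and 80 in the other 19 libraries together. eca-miR-126-5p had 4384 reads, of which 4305 (98.2%) were endometrial and 79 were not. Depth differed between the libraries, so the levels below are CPM normalised between libraries by the trimmed mean of M-values (TMM CPM).

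In pregnant endometrium, eca-miR-126-3p stood at 2287, 1757, 1465, 2139 and 2757 TMM CPM in mares 1 to 5. In cyclic endometrium it stood at 2526, 2527, 2945 and 2090 TMM CPM in mares 1 to 4. The 2 ranges overlapped, and no endometrial library stood far from the others.

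For eca-miR-126-5p, the pregnant endometrium of mares 1 to 5 gave 2402, 1787, 1664, 1641 and 5015 TMM CPM. The cyclic endometrium of mares 1 to 4 gave 1415, 2740, 3495 and 2397 TMM CPM. The 5p arm was thus highest in the pregnant endometrium of mare 5 and lowest in the cyclic endometrium of mare 1, the shallowest of the endometrial libraries.

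Pregnant endometrium had a mean of 2081 ± 497 TMM CPM (SD, n = 5) for the 3p arm, and cyclic endometrium one of 2522 ± 349 (SD, n = 4). The means of the 5p arm were 2502 ± 1439 (SD, n = 5) and 2512 ± 863 (SD, n = 4). By mean CPM the 3p arm was the 58th and the 5p arm the 52nd most abundant of 308 known miRNAs with a read in pregnant endometrium, and they were 51st and 53rd of 306 in cyclic endometrium.

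In UF, both arms were near the limit of detection. The pregnant UF of mares 1 to 5 held 1, 5, 3, 4 and 15 reads of eca-miR-126-3p and 0, 12, 6, 10 and 10 reads of eca-miR-126-5p. The cyclic UF of mares 1 to 4 held 7, 19, 1 and 3 reads of the 3p arm and 6, 9, 1 and 1 reads of the 5p arm. The pregnant UF of mare 1 was low in both arms, with a count of 0 for the 5p arm that allows a level of up to 22.3 CPM at that depth.

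The embryos of mares 1 to 5 held 2, 1, 2, 4 and 4 reads of eca-miR-126-3p and 2, 5, 4, 6 and 3 reads of eca-miR-126-5p. The YS fluids held 2, 3, 2, 1 and 1 reads of the 3p arm and 0, 0, 2, 1 and 1 reads of the 5p arm. All 5 YS fluids were at or under the floor of 3 reads for both arms, so their CPM carry little precision.

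For the 3p arm, pregnant UF averaged 84.6 ± 98.1 TMM CPM (SD, n = 5) and cyclic UF 56.2 ± 49.7 (SD, n = 4), while embryos averaged 46.2 ± 27.0 and YS fluids 74.0 ± 45.3 (SD, n = 5 each). The 5p arm averaged 110.0 ± 83.7 (SD, n = 5), 34.2 ± 22.9 (SD, n = 4), 68.9 ± 35.6 (SD, n = 5) and 40.4 ± 57.3 (SD, n = 5) in the same order. In these 4 sample types the arms ranked between 120th and 158th among the known miRNAs by mean CPM.

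**Figure D1:**
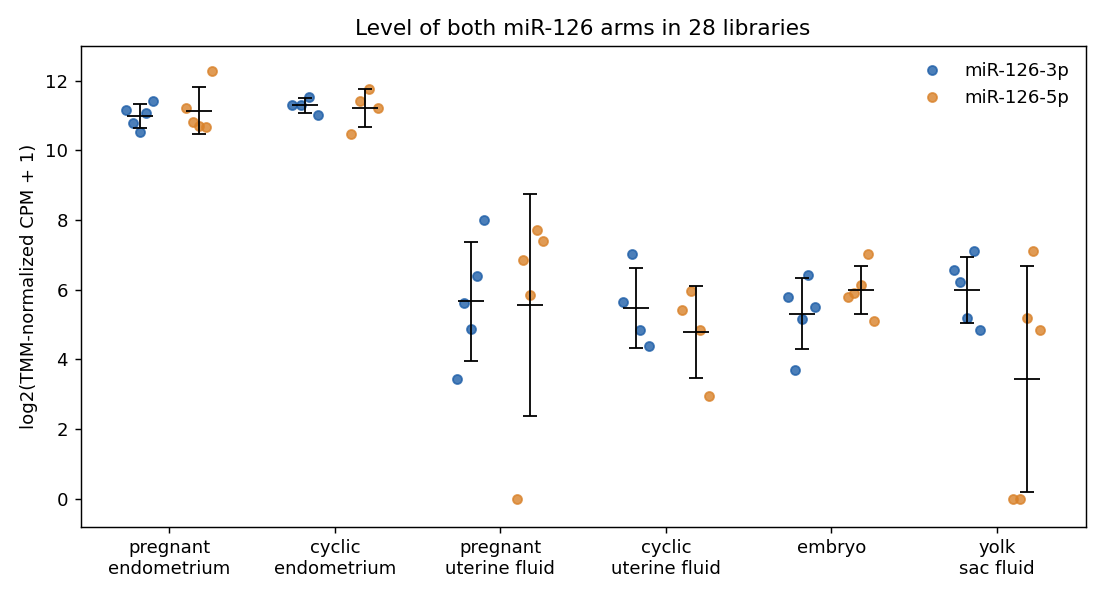
Level of each miR-126 arm in the 28 libraries as log2(TMM CPM + 1), by sample type. Each point is a library, and the bars give the mean and SD of a group. The 9 endometrial libraries of either arm lie at 10.47 or more and the others at 7.99 or less, with 3 libraries at 0 for the 5p arm.

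The lowest endometrial library of the 3p arm had 1465 TMM CPM and the highest of the other libraries, a pregnant UF, 253. For the 5p arm these were 1415 and 208 TMM CPM. In CPM without TMM, the highest of the other libraries was a YS fluid for either arm, at 264 CPM against an endometrial minimum of 748 for the 3p arm and at 230 against 850 for the 5p arm. Neither scale gave an overlap between endometrium and the rest.

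The same separation was then looked up among other known miRNAs. Of the 151 known miRNAs with a mean of at least 100 CPM, 16 (10.6%) had every endometrial library above every other library in TMM CPM. Ordered by the gap on the log2 scale between the lowest endometrial and the highest other library, eca-miR-126-5p was first of these, with a gap of 2.76, and eca-miR-126-3p second, with 2.53. In CPM without TMM, 11 of the 151 did not overlap, and by their gaps the 5p arm, at 1.88, had rank 1 and the 3p arm rank 3. The mean of 100 CPM was taken over all 28 libraries, and both arms reached it through their endometrial levels. The share and the ranks are therefore a description and do not test the separation.

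When the 6 groups were ordered by their mean log2 level, cyclic endometrium was highest and pregnant endometrium next for both arms. The step from pregnant endometrium to the group below it was 5.00 on the log2 scale for the 3p arm and 5.15 for the 5p arm. It was the only step between neighbours that passed a two-sided exact permutation test after Benjamini-Hochberg adjustment over the 10 steps (p = 0.00794, the smallest that 5 against 5 libraries can give, adjusted 0.0397). The other steps had adjusted exact permutation p-values of 0.635 or more and overlapping ranges. The groups were ordered by the same values that were tested, which keeps the steps between neighbours small. These p-values are therefore descriptive only. The order of UF, embryo and YS fluid changed with the scale and the pseudocount.

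Each UF was then compared with the endometrium of the same cycle type, to see how the share of miR-126 among miRNA reads differed between lumen and tissue. Such values are relative to the miRNA reads of a library and do not measure an amount of miR-126. With reads summed over libraries and divided by the summed totals, the 3p arm in pregnant UF was at 4.25% of its share in pregnant endometrium (95% exact interval 2.82 to 6.17, counting error only) and the 5p arm at 4.85% (3.43 to 6.68). In cyclic UF the shares were 2.87% (1.93 to 4.12) and 1.48% (0.858 to 2.37) of those in cyclic endometrium. Single libraries held many of these few reads, and when each library was left out in turn, as chosen after the data were seen, the 3p share was 2.29% without the pregnant UF of mare 5 and 1.61% without the cyclic UF of mare 2.

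By edgeR's quasi-likelihood test, eca-miR-126-3p was lower in pregnant UF than in pregnant endometrium by a log2 fold change of -4.64 (SE 0.55, FDR 4.1e-05) and eca-miR-126-5p by -4.47 (SE 0.63, FDR 0.00014). In this comparison 33.7% of the 359 miRNAs tested were differentially expressed, which needed a fold change of 2 or more at an FDR no higher than 0.05. The share that was lower in UF, as miR-126 was, came to 20.1%. Ordered from the lowest fold change, the 3p arm was 10th and the 5p arm 12th of the 359. Without mare 5, whose UF held the most 3p reads, the 3p value was -5.40.

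In the cyclic cycle the log2 fold changes were -5.47 (SE 0.57, FDR 1.0e-05) for the 3p arm and -6.20 (SE 0.65, FDR 1.0e-05) for the 5p arm. Of 328 miRNAs tested, 30.8% were differentially expressed and 18.9% were lower in UF. The 5p arm had the lowest fold change of all 328 and the 3p arm had rank 3 from the lowest.

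The embryo comparison asks at what relative level the conceptus holds these arms beside the tissue that surrounds it. The log2 fold change of embryo against pregnant endometrium was -5.33 (SE 0.49, FDR 2.3e-06) for the 3p arm and -4.98 (SE 0.52, FDR 6.4e-06) for the 5p arm. Here 71.3% of the 359 miRNAs tested were differentially expressed and 42.6% were lower in the embryo, and the arms were only 51st and 67th from the lowest fold change. The median log2 fold change of all miRNAs was -1.03. With library totals in place of TMM the values of the arms were -4.03 and -3.70.

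In YS fluid the log2 fold change against pregnant endometrium was -4.88 (SE 0.47, FDR 5.8e-07) for the 3p arm and -6.31 (SE 0.73, FDR 2.8e-06) for the 5p arm, with 53.1% of 341 miRNAs differentially expressed and 35.2% lower in YS fluid. By summed reads, YS fluid stood at 14.4% (6.58 to 27.4) of pregnant endometrium for the 3p arm and at 5.39% (1.47 to 13.8) for the 5p arm. Without the YS fluid of mare 3 the latter was 3.55%. The embryo stood at 6.27% (3.33 to 10.7) and 8.10% (4.94 to 12.5). With 9 and 4 reads in all YS fluids together, the size of this difference is uncertain, and it was -2.84 and -4.29 by library totals alone and, for the 5p arm, -7.01 without mare 3. Scaling by library totals alone moved the median of all miRNAs by 2.00 on the log2 scale in this comparison, by 1.33 for embryo and by at most 0.16 for the UF comparisons above.

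**Figure D2:**
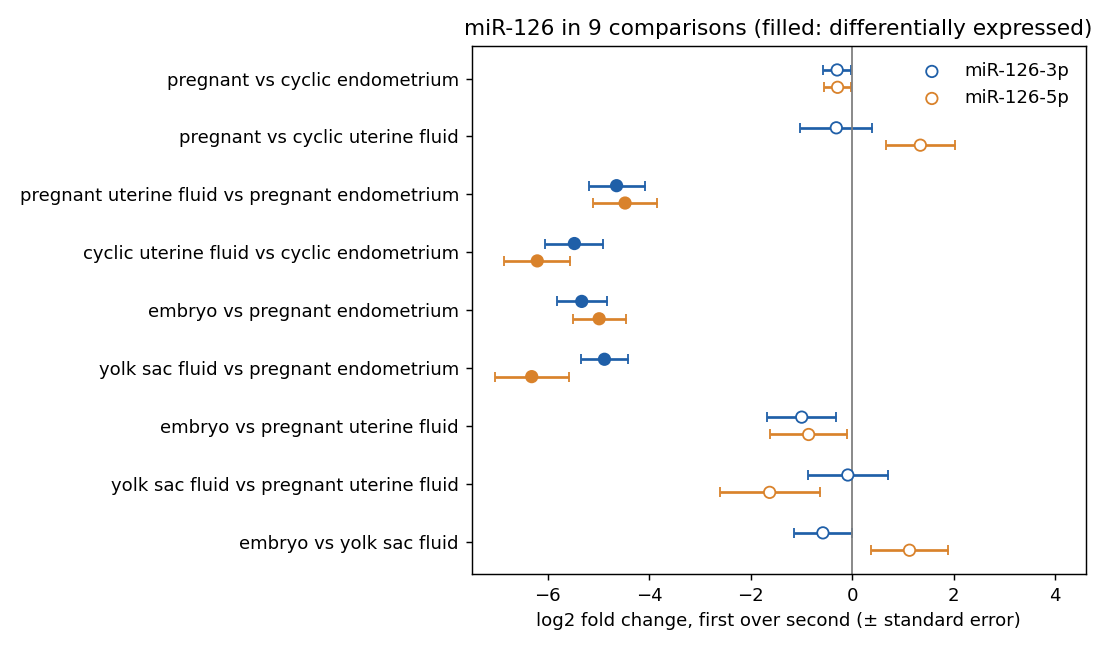
log2 fold change of each miR-126 arm in 9 comparisons, the first group named over the second, with bars of 1 standard error. Filled points passed the threshold. The 8 values of another sample type against endometrium lie between -6.31 and -4.47 and are filled, and the other 10 are open.

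Beyond the endometrium, no comparison passed the threshold for either arm. The log2 fold changes of embryo against pregnant UF were -0.99 (SE 0.68, FDR 0.209) and -0.86 (SE 0.75, FDR 0.324) for the 3p and 5p arms, where 68.4% of miRNAs were differentially expressed. Those of YS fluid against pregnant UF were -0.08 (SE 0.79, FDR 0.943) and -1.63 (SE 0.99, FDR 0.166), with 59.6% differentially expressed. Those of embryo against YS fluid were -0.58 (SE 0.57, FDR 0.449) and 1.13 (SE 0.76, FDR 0.255), with 35.1%.

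The standard errors of these 6 values, from 0.57 to 0.99, do not exclude differences of several fold. The sign of embryo and YS fluid against pregnant UF was not settled either, since scaling by library totals alone turned all 4 of these values positive, from 0.035 to 1.56.

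The question of the study was whether pregnancy changes the miRNAs at the interface, with the mare as her own control. In the endometrium, eca-miR-126-3p in the pregnant cycle differed from the cyclic cycle of the same mare, with TMM CPM scaled within these 9 libraries, by log2 differences of 0.10, -0.52, -1.06 and 0.11 in mares 1 to 4. eca-miR-126-5p differed by 1.01, -0.62, -1.12 and -0.46. The 3p arm was higher in 2 mares and lower in 2, and the 5p arm was higher in 1 and lower in 3.

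The blocked fit gave a log2 fold change of -0.29 for the 3p arm (SE 0.27, FDR 0.778) and of -0.29 for the 5p arm (SE 0.27, FDR 0.778). In this comparison 3.37% of the 386 miRNAs tested were differentially expressed. These were 13 miRNAs, and a fit of known miRNAs only called 2. A two-sided exact sign-flip test over the 4 mares gave p = 0.5 for both arms, where 0.125 is the smallest p that 4 pairs can give. The direction was not the same in fits without the mare as block. In these the pregnant endometrium of mare 5, at 3332 TMM CPM for the 5p arm, also entered the contrast. The 5p value was then 0.19, and in a fit of all 28 libraries, also without the block, the arms stood at 0.14 and 0.45.

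In UF, the log2 differences of the 3p arm between the cycles were -2.09, -0.89, 0.13 and 1.78 in mares 1 to 4. For the 5p arm they were -5.06, 1.41, 1.10 and 4.49. The 5p arm was thus higher in the pregnant UF of 3 of 4 mares, and mare 1, with 6 reads in cyclic and 0 in pregnant UF, went the other way. The size of the value of mare 1 is set by the pseudocount of 1, and with a pseudocount of 10, added after the data were seen, it was -2.08 and those of mares 2 to 4 were 1.21, 0.83 and 3.24.

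The blocked fit in UF gave -0.31 (SE 0.71, FDR 0.973) for the 3p arm and 1.35 (SE 0.69, FDR 0.355) for the 5p arm. In this comparison 4.92% of 305 miRNAs were differentially expressed. These were 15 miRNAs, and a fit of known miRNAs only called 3. Without mare 1 the 5p value rose to 2.28 and passed the threshold (FDR 0.0433). The exact sign-flip test over the 4 mares gave p = 0.75 for either arm, and with the pseudocount of 10 the exact p was 0.875 for the 3p and 0.625 for the 5p arm.

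Whether pregnancy acted differently on miR-126 in the lumen and in the tissue was put to an interaction test. The interaction was -0.14 (SE 0.66, FDR 1) for the 3p arm and 1.53 (SE 0.79, FDR 0.809) for the 5p arm, and 1.69% of 415 miRNAs passed. Without mare 1 the 5p interaction was 2.97 with an FDR of 0.0044. Without mare 4, by contrast, the 5p value in UF was 0.31 and the interaction 0.39. Both values of the 5p arm thus depended on single mares.

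**Figure D3:**
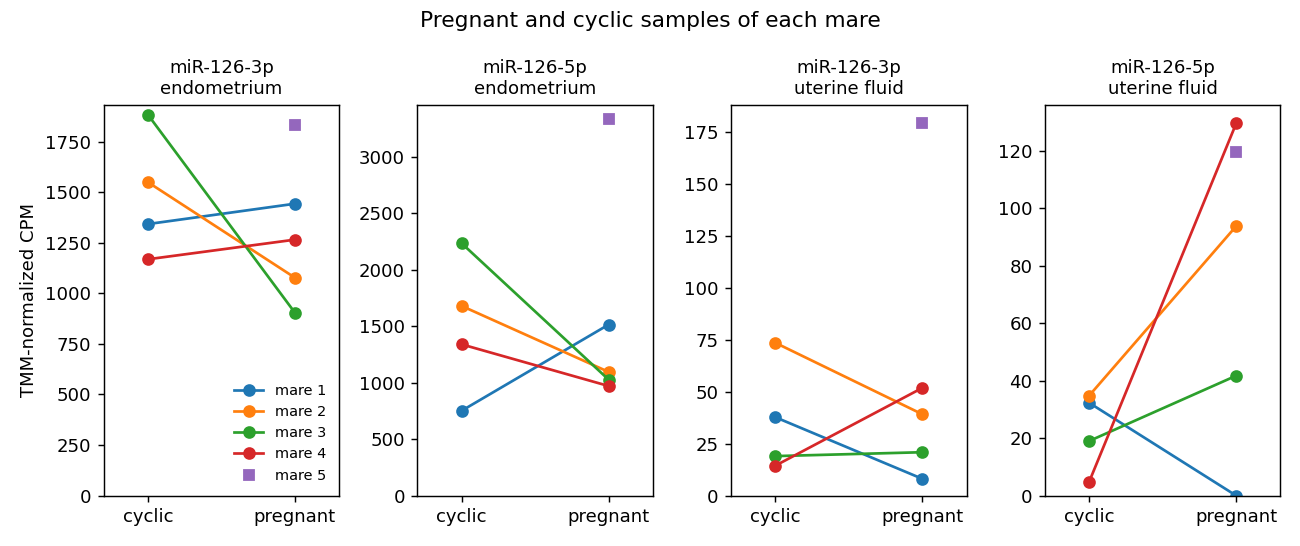
Level of each arm in the cyclic and the pregnant cycle of the same mare, in CPM normalised by TMM within the groups compared, on linear axes from 0 that differ between panels. Lines join the samples of a mare, and mare 5 has a pregnant sample only (square). In endometrium the lines cross for both arms, and in UF the 5p line of mare 1 falls to 0 while those of mares 2 to 4 rise.

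The balance of the 2 arms does not depend on how a library is scaled, since both arms come from the same library. Summed over the libraries, the 3p arm made up 45.7% of the miR-126 reads in pregnant endometrium (95% exact interval 44.2 to 47.1, counting error only) and 47.6% in cyclic endometrium (45.9 to 49.3). In single endometrial libraries the share ran from 35.5% in the pregnant endometrium of mare 5 to 64.1% in the cyclic endometrium of mare 1. The 5p arm had more reads in 7 of the 9 libraries.

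Few of the hairpins counted had arms in such even numbers. Of 48 known hairpins with both arms listed, 29 had at least 100 endometrial reads. Their more abundant arm outnumbered the other by a median of 11.4 times, by more than 2 times in 23 hairpins and by more than 10 times in 15. Over the pooled reads miR-126, at 1.15 times, and miR-423, at 1.17 times, had the most even arms. With each endometrial library left out in turn, miR-126 ran from 1.05 to 1.196 times and ranked 1st or 2nd, and in single libraries it ran from 1.02 to 1.82 times and ranked from 1st to 3rd among the hairpins with enough reads.

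Outside the endometrium the few reads leave wide intervals. The 3p share was 42.4% (30.3 to 55.2) in pregnant UF, 63.8% (48.5 to 77.3) in cyclic UF, 39.4% (22.9 to 57.9) in embryos and 69.2% (38.6 to 90.9) in YS fluid. The intervals of these 4 sample types overlapped each other.

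The log2 ratio of 3p to 5p reads, with 0.5 added to each, averaged -0.15 ± 0.45 in the 5 pregnant and 0.07 ± 0.51 in the 4 cyclic endometrial libraries (SD). Its averages were -0.23 ± 1.25 and 0.62 ± 0.60 for the 5 pregnant and 4 cyclic UF libraries, -0.58 ± 0.86 for the 5 embryos and 1.03 ± 1.42 for the 5 YS fluids (SD). In each of the 9 comparisons the ranges of the groups overlapped.

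None of the 9 comparisons of this ratio passed the exact tests, which say little at these sizes. The 2 paired comparisons could not go below p = 0.125, and a lone p of 0.00794, the smallest that 5 against 5 libraries allow, would be 0.0714 after adjustment over the 9 exact tests. The lowest p of the two-sided exact permutation tests was 0.0794, for embryo against YS fluid, with a difference of -1.60 and an adjusted value of 0.393. In the quasi-likelihood test on the counts of both arms, miR-126 could be tested in 6 comparisons and was called in none, at no unadjusted p under 0.05. Of all hairpins tested, the arm ratio was called in 6.9% between pregnant and cyclic endometrium and in 0.0% between pregnant and cyclic UF. The other 4 comparisons were against endometrium, with 11.5% for pregnant UF, 8.33% for cyclic UF, 21.4% for embryo and 3.7% for YS fluid.

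**Figure D4:**
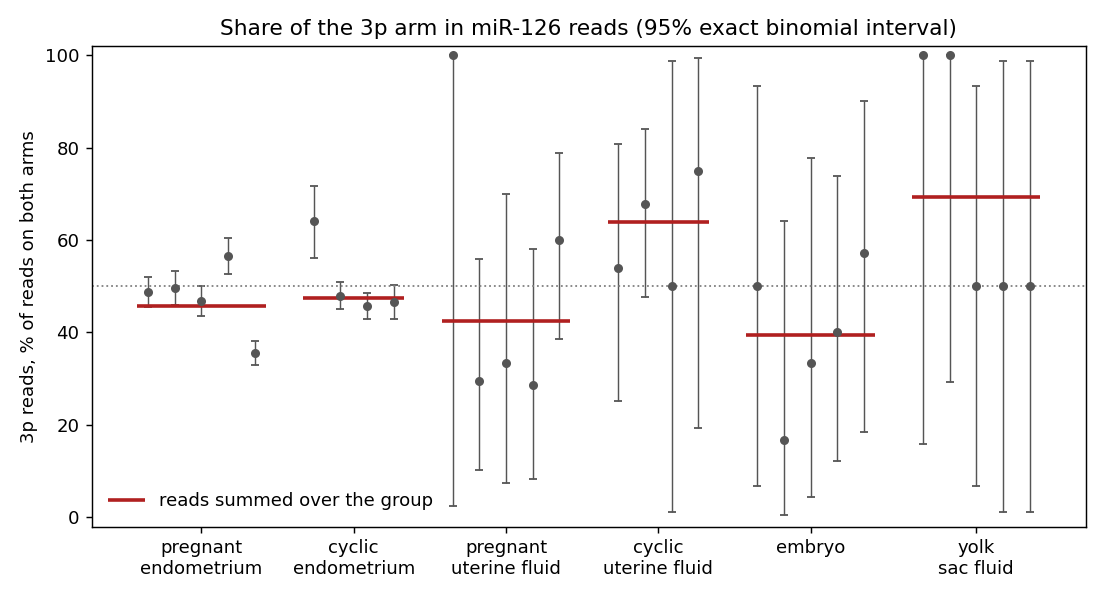
Share of miR-126 reads on the 3p arm in each library, in percent, by sample type. Points are libraries with 95% exact binomial intervals, horizontal lines give the reads summed over a group, and the dotted line marks 50%. The endometrial libraries lie between 35.5 and 64.1% with short bars, and the bars of UF, embryo and YS fluid span much of the axis.

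Within a compartment the 2 arms tended to be high in the same libraries. Over the 9 endometrial libraries Pearson's r between the CPM of the arms was 0.623 and Spearman's rho 0.633, and without the 2 libraries farthest from the median r was 0.593. Over the 9 UF libraries r was 0.817 and rho 0.850, and r was 0.687 without the 2 farthest. These are descriptions of 9 libraries from 5 mares, and the points share a library total on both axes.

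The level of miR-126 also went with markers of other cells. The summed CPM of both arms rose with the summed CPM of 7 smooth muscle and stromal entries (miR-143, miR-145, miR-199a, miR-199b and miR-214), with r = 0.951 and rho = 0.967 over the 9 UF libraries and r = 0.849 and rho = 0.883 over the 9 endometrial libraries. Without the 2 libraries farthest from the median, r was 0.873 in UF and 0.564 in endometrium. In UF r was 0.381 for the 4 erythroid, 0.502 for the 5 leukocyte and -0.190 for the 6 epithelial entries and -0.225 for library totals, and without the 2 farthest libraries it was -0.212, 0.634, -0.693 and -0.242. In endometrium r was -0.281, -0.155, 0.433 and -0.135 in the same order, and -0.010, -0.113, 0.389 and -0.126 without the 2 farthest. With 5 pregnant and 4 cyclic libraries in each compartment, no value is given within a group.

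The pregnant endometrium of mare 5, highest in miR-126 with 4816 CPM over both arms, had 56910 CPM of the smooth muscle and stromal entries against 17516 to 38442 CPM in the other endometrial libraries, and the lowest erythroid sum, 2674 CPM. In UF, the pregnant sample of mare 1 had the lowest miR-126 (7.42 CPM) and the lowest stromal sum (364 CPM), and the pregnant sample of mare 5 had the highest of both (316 and 8071 CPM). The part of the share of stroma and vessels in a biopsy or on a tampon in these levels was not tested.

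The marker lists moved between sample types as follows. In pregnant UF against pregnant endometrium, 6 of 7 smooth muscle and stromal entries were lower (median log2 fold change -2.99), as were 3 of 4 erythroid entries (median -3.09) and 1 of 5 leukocyte entries (median -0.44), while of 6 epithelial entries 1 was higher and none lower (median 0.35). Of all miRNAs 20.1% were lower and 13.6% higher, and their median was -0.12. Both arms of miR-126, at -4.64 and -4.47, lay below the medians of these lists.

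In cyclic UF against cyclic endometrium, 7 of 7 smooth muscle and stromal entries (median -4.27) and 3 of 3 erythroid entries tested (median -2.29) were lower, 0 of 5 leukocyte entries changed (median -0.69) and 2 of 6 epithelial entries were higher (median 0.58), beside 18.9% of all miRNAs lower and 11.9% higher. In the embryo and in YS fluid against pregnant endometrium, all 7 stromal, 4 erythroid and 5 leukocyte entries were lower. Their medians were -6.96, -5.90 and -5.83 in the embryo and -6.14, -5.61 and -7.12 in YS fluid. In the embryo 2 stromal, 1 erythroid and 2 leukocyte entries had no read, and in YS fluid 2, 2 and 4 had none. Such entries passed the filter through endometrium alone. Their direction was thus fixed in advance, and the size of their values depends on the prior count. Of 6 epithelial entries, 1 was higher and 3 lower in the embryo (median -1.34), and 0 higher and 3 lower in YS fluid (median -1.91). The shares of all miRNAs were 42.6% lower and 28.7% higher in the embryo and 35.2% and 17.9% in YS fluid. miR-126 in the embryo, at -5.33 and -4.98, lay above the stromal, erythroid and leukocyte medians, which is a description only.

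**Figure D5:**
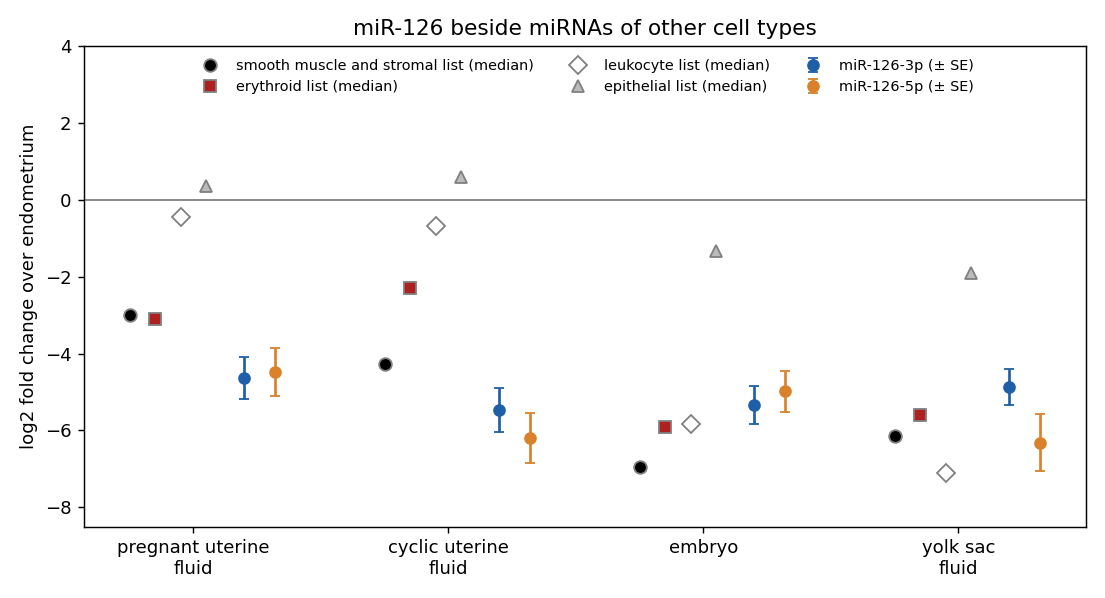
log2 fold change over endometrium of both miR-126 arms (points with bars of 1 SE) beside the median of 4 marker lists, for 4 sample types. In the UF comparisons the miR-126 arms lie below the median of each list, with the smooth muscle and stromal list at -2.99 and -4.27, and in the embryo the stromal, erythroid and leukocyte medians lie lower than miR-126. Some entries of the stromal, erythroid and leukocyte lists had no read in the embryo or in YS fluid.

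The most abundant members of the lists were miR-143 for smooth muscle and stroma, miR-486-5p for red cells, miR-155 for leukocytes, miR-200b for epithelium and miR-371-5p for the early embryo. In pregnant UF against pregnant endometrium, miR-143 had a log2 fold change of -3.35 and miR-486-5p of -2.50. The values of miR-155 and miR-200b, -0.44 and 0.11, did not pass the threshold. miR-371-5p was higher in the embryo than in pregnant endometrium by a log2 fold change of 11.42, a value that depends on the prior count because the endometrium had almost no reads.

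Between pregnant and cyclic samples, edgeR called 0 of the 22 entries of these 5 lists tested in endometrium and 0 of 21 in UF, where 3.37% and 4.92% of all miRNAs were called, shares too low to read anything from 0 calls in lists of this size. At an unadjusted p under 0.05 there were 3 in each, and DESeq2 called miR-142-5p, a leukocyte miRNA, lower in pregnant endometrium and miR-486-5p lower in pregnant UF, both named after their values were seen. miR-155 had a log2 fold change of 0.97 in endometrium, with an FDR of 0.0052, just short of a fold change of 2. The study, in contrast, reported miR-486-5p as upregulated and miR-144 as downregulated in pregnant endometrium, both on the erythroid list. Here miR-486-5p had a log2 fold change of 0.17 in endometrium (FDR 0.826), and why the calls differ was not tested.

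Other miRNAs known from endothelial cells or from vessel growth were taken as a list of 24 names, of which 23 were in the table, each with 1 entry. In endometrium 0 of 22 tested differed between pregnant and cyclic cycles by edgeR, with 4 at an unadjusted p under 0.05 and 0 called by DESeq2, beside 3.37% of all miRNAs called by edgeR. Their median log2 fold change was 0.09, against 0.08 for all miRNAs. Both arms of miR-126, at -0.29, lay on the low side of the list, with 4 of its members lower than either arm. By contrast, the study reported miR-130a, miR-132 and miR-221, all on this list, as upregulated in pregnant endometrium. It also used edgeR with the same thresholds, and why the calls differ was not tested.

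In UF, 2 of 21 were higher in pregnant mares by both tools, where 1.31% of all miRNAs were higher and 3.61% lower. miR-23b had a log2 fold change of 1.73 (SE 0.38, FDR 0.0023) and miR-23a of 1.40 (SE 0.40, FDR 0.0137). The study had already reported miR-23b as upregulated in pregnant UF, and the list was drawn up with earlier results known. The 2 calls are therefore no independent result about the list. miR-23a and miR-23b are near-identical in sequence and stand in clusters with miR-27 and miR-24, so that reads may have been split between them. The miR-126-5p value of 1.35 was close to theirs in size and had a larger error.

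In pregnant UF against pregnant endometrium, 3 of 22 vascular members were higher and 4 lower, beside 13.6% and 20.1% of all miRNAs, and none fell as far as either arm of miR-126. The lowest were miR-10b, which restrains HOX genes and is known for promoting sprouting of vessels, at -4.27 and miR-100, which restrains mTOR, at -3.77. The highest were miR-23a at 2.03 and miR-222, which restrains the receptor KIT in endothelial cells, at 1.75. In cyclic UF against cyclic endometrium the counts were again 3 higher and 4 lower, beside 11.9% and 18.9% of all miRNAs, with miR-10b at -5.40, miR-424 at -5.33, miR-132 at 2.12 and miR-222 at 1.57.

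The embryo differed from pregnant endometrium in more of the list, with 6 of 22 higher and 13 lower, beside 28.7% and 42.6% of all miRNAs. miR-132, which restrains RASA1 in endothelial cells, and miR-27a were both at -7.26. miR-18a and miR-17, members of the miR-17 to miR-92 cluster that is abundant in dividing embryonic cells, were at 5.86 and 3.61. The list's median was -2.71 against -1.03 for all miRNAs. As in the marker lists, a member with no read in the embryo or in YS fluid could pass the filter through the other group alone. Its direction would then be fixed in advance, and the size of its value would depend on the prior count. The list was also drawn up with earlier results known. Its counts between sample types are therefore a description only.

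In YS fluid against pregnant endometrium, 6 of 22 were higher, led by miR-18a at 5.09 and miR-17 at 3.97, and 11 were lower, led by miR-27a at -5.50 and miR-100 at -5.32. Of all miRNAs 17.9% were higher and 35.2% lower. None of the 22 had a lower log2 fold change than the 5p arm of miR-126, and 3 were lower than the 3p arm. The list's median was -2.18 against -0.84 for all miRNAs.

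Against pregnant UF, 8 of 22 members were higher and 10 lower in the embryo, led by miR-18a at 4.93, miR-378 at 3.23, miR-27a at -7.70 and miR-23a at -7.42. Of all miRNAs 29.7% were higher and 38.7% lower in that comparison. In YS fluid 7 members were higher and 9 lower, beside 23.5% and 36.1% of all miRNAs. Between embryo and YS fluid, 3 of 19 members were higher in the embryo and 3 lower, beside 35.1% of all miRNAs called in either direction. Neither arm of miR-126 was called in these 3 comparisons.

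Which miRNAs had a pattern like that of miR-126 was measured by the mean absolute difference of the 6 group means, on the log2 scale and centred on each miRNA's own mean, among the 150 other known miRNAs with a mean of at least 100 CPM. Nearest to the 3p arm were miR-379 (0.41), miR-127 (0.54), miR-487b (0.56), miR-10b (0.75) and miR-451 (0.77). The 5p arm of its own hairpin came sixth, at 0.79.

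Nearest to the 5p arm were miR-369-3p (0.53), then miR-126-3p (0.79), miR-451 (0.87), miR-195 (0.96) and miR-196b (0.96). miR-379, for instance, had mean log2 levels of 10.95 and 10.94 in pregnant and cyclic endometrium, 6.07 and 5.83 in UF, 4.95 in embryos and 6.92 in YS fluid. The 3p arm had 10.99 and 11.29, 5.66 and 5.47, 5.32 and 5.99 in the same order. With 6 group means and few reads in 4 of the groups, the order of these neighbours is a description only.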

How the data were processed

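miRNA libraries of 28 samples were analysed as 6 groups taken from the labels. According to the study's methods and the submitters' processing notes, the authors used cutadapt 1.11 to trim adapters and drop reads that were short, ambiguous or of low quality, and then counted reads on the horse miRNAs of miRBase and on miRNAs predicted on EquCab2.0 with miRPro. The deposited values are raw read counts per miRNA, without normalization. How reads matching several miRNAs were counted is not given in the sources used here and no molecular identifiers are named, so intervals and floors cover counting error only. The deposited fold changes and tests of the study, and its mRNA and protein samples, were not used here.

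Known and predicted miRNAs were fitted together in edgeR 4.0.16 (R 4.3.3) with TMM normalization, keeping miRNAs with at least 1 CPM in as many libraries as the smaller group, the quasi-likelihood test and Benjamini-Hochberg adjustment over all miRNAs tested. The call rule, from the study's methods, was an FDR no higher than 0.05 with a fold change of 2 or more. Standard errors (SE) of log2 fold changes were derived from the test. Each is the absolute log2 fold change divided by the square root of the F statistic, so it is approximate. The replicate number was taken as the mare, which was a block between pregnant and cyclic samples because the study sampled both cycles of the same mares. The correlation of same-mare deviations was 0.151, 0.00505, 0.0939 and 0.187 in endometrium and 0.0475, 0.203, 0.0174 and 0.141 in UF for mares 1 to 4. With the block, mare 5 enters the normalization and filter but not the contrast. Comparisons between sample types had no block. Levels were log2(TMM CPM + 1) over the 28 libraries.

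The log2 ratio of the arms, with 0.5 added to each count, was tested by exact permutation or sign-flip tests. Across hairpins the planned limma 3.58.1 test on log ratios made 10.2 false calls on average among 28 hairpins in data simulated for embryo against pregnant endometrium, so a quasi-likelihood test on the counts of both arms was added after the data were seen. It made 0 false calls and recovered 43.3% of ratios changed by 3 on the log2 scale in 10 simulations.

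The arms, the marker and vascular lists and the rule for named miRNAs (both arms, the 5 nearest patterns of each, called or most changed vascular members, each list's most abundant marker) were chosen with earlier results of these data known. Lists were matched by name, with any arm. DESeq2 1.42.0, other scalings and filters, other blocks and samples and each mare left out were alternatives.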

Additional observations from a re-analysis of the deposited data

Results flagged for a closer look

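Groups of 4 or 5 libraries were screened for a library far from the rest in the log2 level of each arm and in the log2 ratio of the arms, with Dixon's criterion. Of 18 groups screened 2 held such a library, where chance gives about 1 in 20.

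The log2 ratio of 3p to 5p in cyclic endometrium was 0.83 in mare 1, against -0.25 to -0.12 in the other 3 mares. This library rests on 100 and 56 reads and has 61836 counted miRNA reads in all, the lowest total in endometrium. The exact interval of its 3p share, 56.0 to 71.6%, lies above those of the other 3.

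The log2 level of eca-miR-126-5p in pregnant UF was 0.0 in mare 1. Its library had 0 of 134734 counted miRNA reads on this arm and 1 read on the 3p arm, while the other 4 libraries held 6 to 12 reads of the 5p arm. How far a library without a read lies from the rest depends on the pseudocount of 1 in the log2 level. No screen with another pseudocount is given here, so the flag may rest on that choice. The smooth muscle and stromal entries were also at their lowest of the 9 UF libraries there, at 364 CPM. Whether that sample differs in anything beyond these counts was not tested.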

How the results depend on the processing

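The 8 calls of both arms against the endometrium of the 4 other sample types passed the threshold in all 110 alternative fits, with log2 fold changes from -7.01 to -2.84 and adjusted p-values of 0.0019 or less. Values that turned sign were not called, and their cause was not tested. Without the replicate block, which brings mare 5 into the contrast, the 5p value of pregnant against cyclic endometrium was 0.19. The 3p value in UF was then 0.51 and the 3p interaction 0.57. The mare as block gave 0.26 for the 3p arm in YS fluid against pregnant UF. The replicate block changed no call of either arm. The fit of 28 libraries gave 0.14 (3p) and 0.45 (5p) in endometrium, 0.44 (3p) in UF and 0.47 (3p) for YS fluid against pregnant UF. For that last value DESeq2 gave 0.63, RLE size factors 0.62, library totals 1.56 and known miRNAs only 0.40, and RLE gave 0.13 for the 3p interaction. Library totals gave 0.37 (3p) and 0.60 (5p) for embryo and 0.035 (5p) for YS fluid against pregnant UF.

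With each mare left out, the 3p arm ran from -1.09 to 0.093 and the 5p arm from 0.31 to 2.28 in pregnant against cyclic UF, and the interaction from -0.74 to 0.55 and from 0.39 to 2.97. The 3p arm ran from -1.28 to 0.18 for embryo and from -0.40 to 1.10 for YS fluid against pregnant UF. The arm ratio ran from -0.25 to 0.25 in pregnant against cyclic endometrium and from -0.51 to 0.30 in pregnant UF against pregnant endometrium.

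Hairpins with a called arm ratio, by log ratios and then by counts of both arms, numbered 0 and 2 in pregnant against cyclic endometrium, 9 and 3 in pregnant and 5 and 2 in cyclic UF against endometrium, 21 and 6 in embryo and 18 and 1 in YS fluid against endometrium, and 11 and 4 in embryo and 7 and 1 in YS fluid against UF. With at least 30 reads the log ratios gave 2 in cyclic UF against endometrium, and 5 and 3 in embryo and YS fluid against UF. With 1 read in each library they gave 6 in YS fluid against endometrium.

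Counts of called miRNAs moved by over 1.5 times in several settings. Pregnant against cyclic endometrium had 13, and 3 with filterByExpr, 0 without the block, 0 in the fit of 28 libraries and 2 with known miRNAs only. UF had 15, and 0, 0, 7 and 3 in those settings and 2 to 26 with a mare left out. filterByExpr gave 75 in place of 121 in pregnant UF and 140 in place of 256 in embryo against endometrium, and 101 in place of 212 in embryo and 90 in place of 165 in YS fluid against UF. Embryo against YS fluid had 91, and 40 with filterByExpr, 54 with the block and 40 to 60 without mares 1, 2, 4 or 5. In pregnant against cyclic UF neither arm passed filterByExpr and DESeq2 gave them no adjusted p, and neither arm passed filterByExpr in the 3 comparisons among embryo, YS fluid and pregnant UF. Depth limits the UF, embryo and YS fluid values, where the arms had 19 reads or fewer in each library.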
